A study of Mus musculus with 109 samples.

Results

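The genes described here are 10 complement components and receptors. They are the C1q subunits C1qa, C1qb and C1qc, the components C2, C3, C4b and Cfb, and the receptors C3ar1, C5ar1 and C5ar2. They were chosen by name for their place in the complement system, and all 10 were found by Ensembl identifier among the 37315 genes of the deposited table. All 10 passed the filter on low counts in the comparisons of day 2 and of PBS retinas between days, while C5ar1 and C5ar2 did not pass it in the comparisons of TNF with PBS within day 14 and within day 35.

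The study sequenced RNA of 109 whole mouse retinas from 64 mice, 54 of them retinas of females and 55 of males, after an injection into the vitreous. Eyes received phosphate-buffered saline (PBS), interleukin 1 alpha (IL1A), tumor necrosis factor (TNF) or both cytokines (IL1A+TNF), and the mice were 2 to 4 months old. The design asks what each cytokine does alone, what they do together, how long a TNF injection acts, and how mice without Sarm1 respond to both cytokines. Both eyes were sequenced in 45 mice, of which 44 had a PBS eye and a treated eye and 1 had PBS in both eyes.

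Wild-type (WT, C57BL/6J) retinas of batch 1 at day 2 comprised 31 PBS, 8 TNF, 9 IL1A and 10 IL1A+TNF retinas. At day 14 batch 1 held 7 PBS retinas from 6 WT mice and 6 TNF retinas, and at day 35 it held 6 PBS and 9 TNF retinas, all WT. Batch 2 was collected at day 2 and held 5 WT PBS, 6 WT IL1A+TNF, 6 Sarm1KO PBS and 6 Sarm1KO IL1A+TNF retinas. The Sarm1 deletion is carried by every cell of the mouse, so the genotype comparisons isolate no tissue or cell type. PBS eyes were mostly the other eyes of treated mice, and none of the groups was left without an injection, so the values hold no level of an untouched retina. Comparisons with PBS at day 2 in batch 1 share the same 31 PBS retinas, and the comparisons in batch 2 also share their PBS retinas.

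Total counts on genes ranged from 30014757 to 43039063 in PBS retinas of day 2, batch 1 (median 39328089). They ranged from 32508287 to 40885644 in the TNF retinas, from 32032592 to 41179799 in the IL1A retinas and from 36883363 to 45779899 in the IL1A+TNF retinas of that batch. At day 14 the range was 30095033 to 40090639 for PBS and 31646659 to 40562588 for TNF, and at day 35 it was 35342329 to 42486918 for PBS and 33221383 to 40039443 for TNF. Batch 2 was deeper. Its totals ran from 42875980 to 63122762 in WT PBS, from 49558686 to 79064488 in WT IL1A+TNF, from 47738842 to 70099610 in Sarm1KO PBS and from 48796849 to 57510927 in Sarm1KO IL1A+TNF retinas. Levels are given as counts divided by the scaled library total, times 1e+06 (CPM), as the lowest, the median and the highest retina of a group.

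Labels were checked against marker genes. Sarm1 ranged from 26.0 to 52.9 CPM (median 42.2) in the 12 Sarm1KO retinas and from 76.2 to 138 CPM (median 105) in the 97 WT retinas, so the genotypes did not overlap, although Sarm1 counts were not at 0 in the Sarm1KO retinas. Lens genes (Cryaa, Crygs, Lim2, Mip and Bfsp1) summed to at least 300 CPM in 13 retinas and reached 4202 CPM in 1 of them. Results that change without those retinas are named with their values.

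Complement is a system of proteins that tag cells, debris and microbes for removal. Its classical pathway starts when C1q binds a target and its proteases cleave C4 and C2, its alternative pathway amplifies through factor B, and both meet at C3, whose cleavage products mark surfaces and call immune cells through receptors. In the nervous system C1q is made largely by microglia, and C1q and C3 are known for the removal of synapses in development and in disease, including diseases of the retina.

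Among PBS retinas of day 2, batch 1, levels were compared between genes per kilobase of exon. C4b had a median of 16.0 CPM per kilobase (10.6 to 25.2) and C3 had 15.6 (3.88 to 42.6). C1qa followed with 11.7 CPM per kilobase (6.72 to 18.8), C1qb with 11.3 (6.60 to 17) and C1qc with 6.55 (3.94 to 8.84). These 5 genes stood above the other 5 in their medians, and the ranges of C4b, C3, C1qa and C1qb over retinas overlap, so their order is not larger than their spread. The level of C1qc per length depends on the length used, since its longest transcript in place of all its exons gives 10.5 CPM per kilobase. C3ar1 was lower, at 1.03 CPM per kilobase (0.477 to 2.74), followed by C5ar1 at 0.617 (0.115 to 2.45) and C2 at 0.588 (0.288 to 1.68). Cfb at 0.254 (0.103 to 0.526) and C5ar2 at 0.192 (0.0378 to 0.426) came last, and neighbours within these 5 genes also overlap.

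The levels of C2 and Cfb have a limit of their own. The annotated gene Gm20547 lies on the same strand and shares 42.8% of the exon bases of C2 and 79.5% of those of Cfb. It had at most 1 count in any retina, with 107 of 109 retinas at 0, so reads in the shared exons could have been left uncounted for all 3 genes. Zbtb12, on the other strand, shares 4.16% of the exon bases of C2. Over exon bases not shared with Gm20547, a length chosen after the values were seen, the medians were 1.03 CPM per kilobase for C2 (0.502 to 2.93) and 1.24 for Cfb (0.502 to 2.57). C4a is a near copy of C4b, and reads could be split between them.

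**Figure D1:**
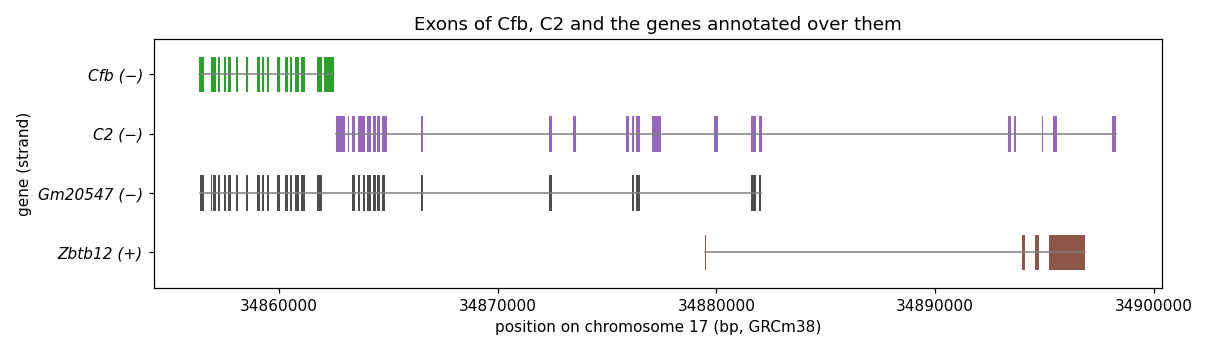
Exons (boxes) of Cfb, C2, Gm20547 and Zbtb12 along chromosome 17 of GRCm38, with the position in base pairs on the horizontal axis and the strand beside each name. The exons of Gm20547 lie over 79.5% of the exon bases of Cfb and 42.8% of those of C2.

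**Figure D2:**
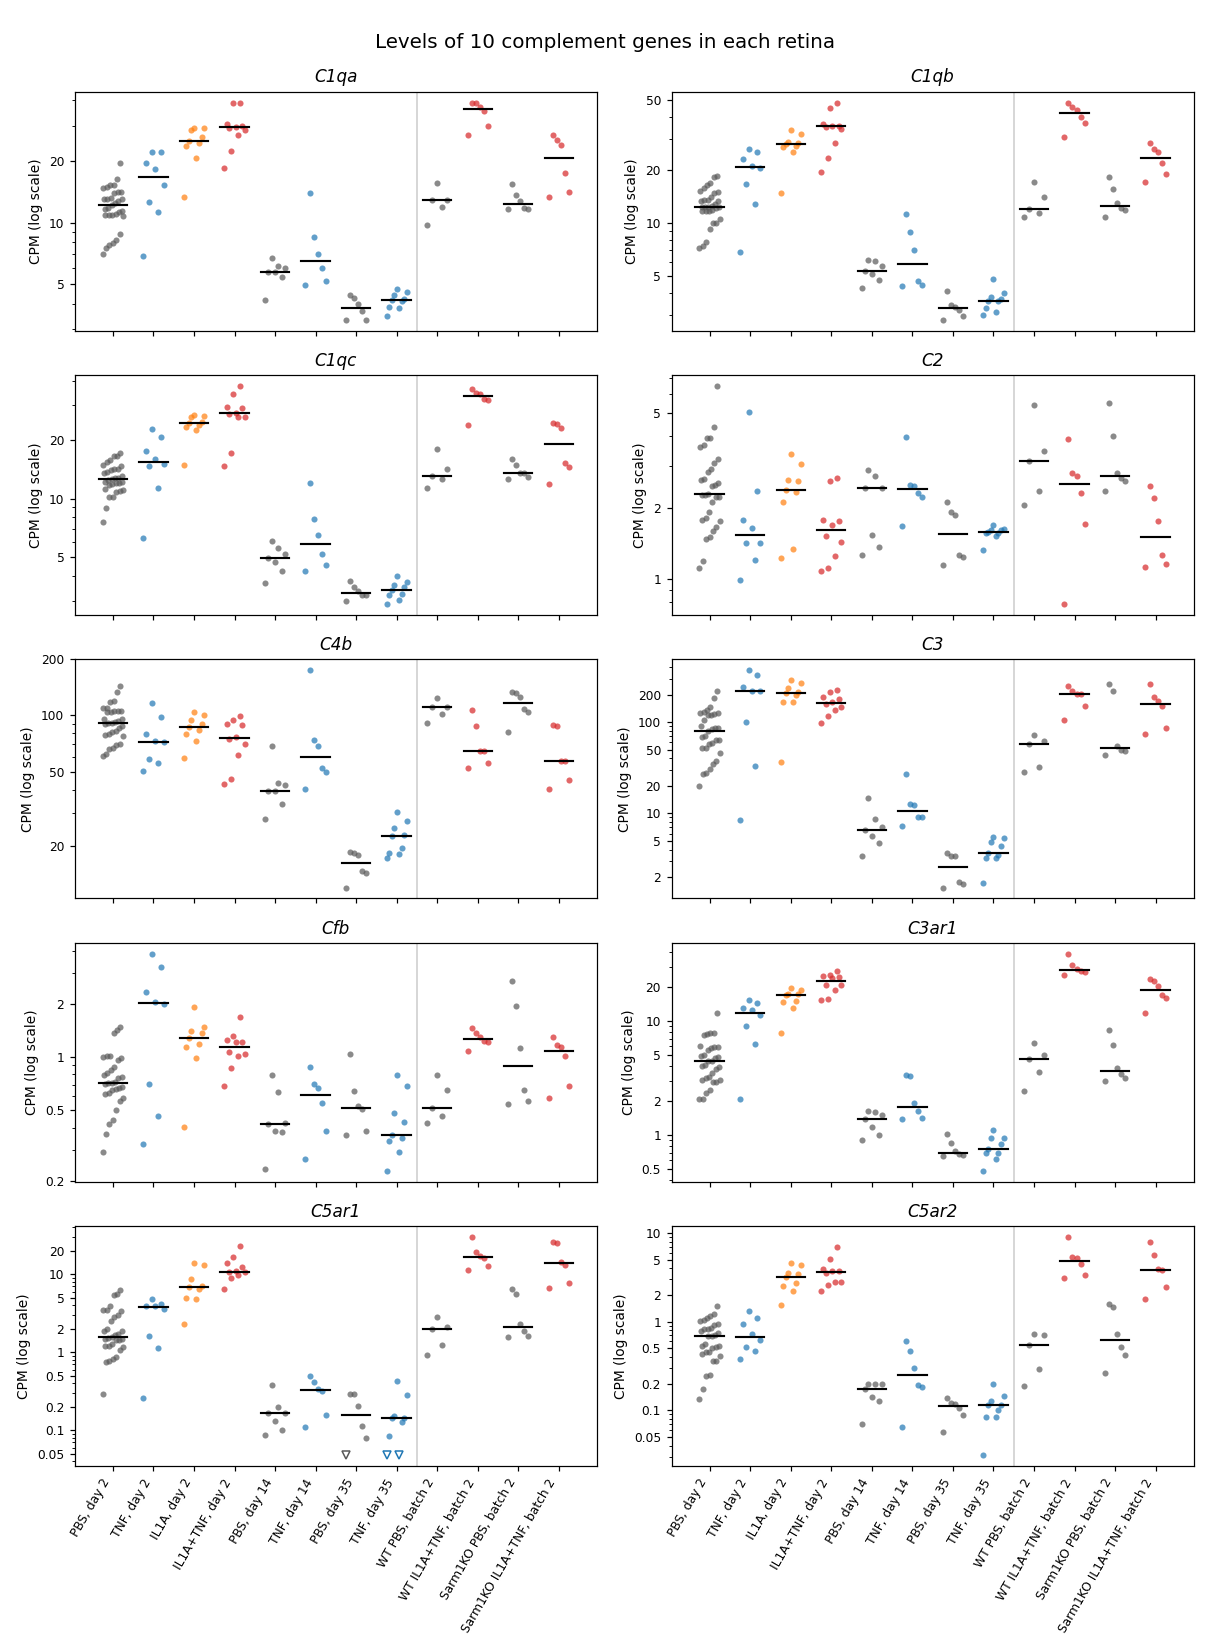
Level in CPM (log axis) of the 10 genes in each of the 109 retinas, by group. Each point is a retina, the black bar is the group median, open triangles at the foot of the C5ar1 panel are retinas at 0 CPM, and the grey line separates batch 1 on the left from batch 2 on the right; C1qb, for example, has medians of 12.3 CPM in PBS and 35.4 CPM in IL1A+TNF retinas of day 2, batch 1.

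A gene is called changed in a comparison where limma's Benjamini-Hochberg adjusted p over all genes tested (FDR) is under 0.05. In IL1A+TNF against PBS retinas of day 2, batch 1, all 10 genes were called, 8 higher and 2 lower, with a median log2 fold change of 1.20. Of all 19548 genes tested there, 50.4% were called (24.9% higher, 25.5% lower) and the median was −0.02. After IL1A alone 7 of the 10 were called, each higher (median 1.07), against 21.4% of all genes (median −0.01). After TNF alone 1 of the 10 was called, which was higher (median of the 10 genes 0.36), against 0.655% of all genes (median −0.00).

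Direct comparisons of the treatments at day 2 gave 6 of 10 genes higher after IL1A+TNF than after TNF (median 0.85), against 39% of all genes called. Of the 10, 5 were higher after IL1A than after TNF (median 0.61), against 9.08% of all genes. Between IL1A+TNF and IL1A, limma called 0 of 10 (median 0.17) and 10.1% of all genes, with 4772 genes at an unadjusted p under 0.05. DESeq2 and edgeR also called 0 of the 10 there, while the fit without a sex term called 1, C5ar1 (log2 fold change 0.77, FDR 0.0476; from 0.0476 to 0.292 over 8 alternatives), which was above the IL1A median in 9 of 10 retinas. The IL1A by TNF interaction, which asks whether the effects of the cytokines add up on the log2 scale, called 0 of 10 with limma (median −0.09) and 3.6% of all genes, with 3431 genes at an unadjusted p under 0.05. DESeq2 and edgeR each called 1 of the 10 for the interaction, Cfb, whose values are given with that gene. Between the sexes limma called 0 of 10 (median 0.02) and 0.363% of all genes, with 1948 genes at an unadjusted p under 0.05, and DESeq2 and edgeR also called 0 of the 10.

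At later days after TNF, limma called 0 of 8 genes tested at day 14 (median 0.32, 8 of 8 positive) and 0% of all 18023 genes, with 838 genes at an unadjusted p under 0.05. At day 35 it called 0 of 8 (median 0.08, 7 of 8 positive) and 0% of 17821 genes, with 871 at an unadjusted p under 0.05. Shares of all genes with a positive change are not given for these days, so the sign counts are not set against them. DESeq2 and edgeR called 0 of the members at both days. The difference of the TNF effect between day 14 and day 2 was called for 0 of the 8 genes that also passed the filter within day 14 and 0% of 18023 such genes, with 660 at an unadjusted p under 0.05, and that between day 35 and day 2 for 0 of 8 and 0% of 17821, with 390 at an unadjusted p under 0.05. These came from limma, and edgeR called 0 in both. Among PBS retinas, 7 of these 8 genes were lower at day 14 than at day 2 (median −1.19) against 19.5% of 18022 such genes called (10.3% lower, median 0.01), and 6 of 8 were lower at day 35 (median −1.92) against 33.4% of 17817 such genes called (16.7% lower, median 0.01). Over all genes tested the shares were 19.2% and 32.8%. C5ar1 and C5ar2 are left out of these counts and medians because they passed the filter there through the day 2 retinas, a choice made after the values were seen. The 7 PBS retinas of day 14 include both eyes of mouse 59710, entered as separate retinas without a block.

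In batch 2, 9 of 10 genes were called in WT IL1A+TNF against WT PBS retinas, 8 higher and 1 lower (median 1.55), against 20.9% of all genes (median −0.02). In Sarm1KO retinas the same contrast called 7 of 10, 5 higher and 2 lower (median 0.69), against 43.5% of all genes (median 0.01). The tests on Sarm1KO retinas used all day 2 retinas with a batch term, so WT retinas of both batches enter them, while Sarm1KO retinas come from batch 2 alone. Between Sarm1KO and WT PBS retinas limma called 0 of 10 (median 0.00) and 0.0397% of all genes, with 984 at an unadjusted p under 0.05, and DESeq2 and edgeR also called 0 of the 10. Between Sarm1KO and WT IL1A+TNF retinas 4 of 10 were called, each lower in Sarm1KO (median −0.37), against 14.8% of all genes (10.8% lower, median −0.00). The genotype by treatment interaction, which tests whether the response differs between genotypes, called 3 of 10, each a smaller response in Sarm1KO (median −0.52), against 8.75% of all genes (7.24% lower, median 0.00). That count changes with the tool and with single mice left out, as given for C1q.

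**Figure D3:**
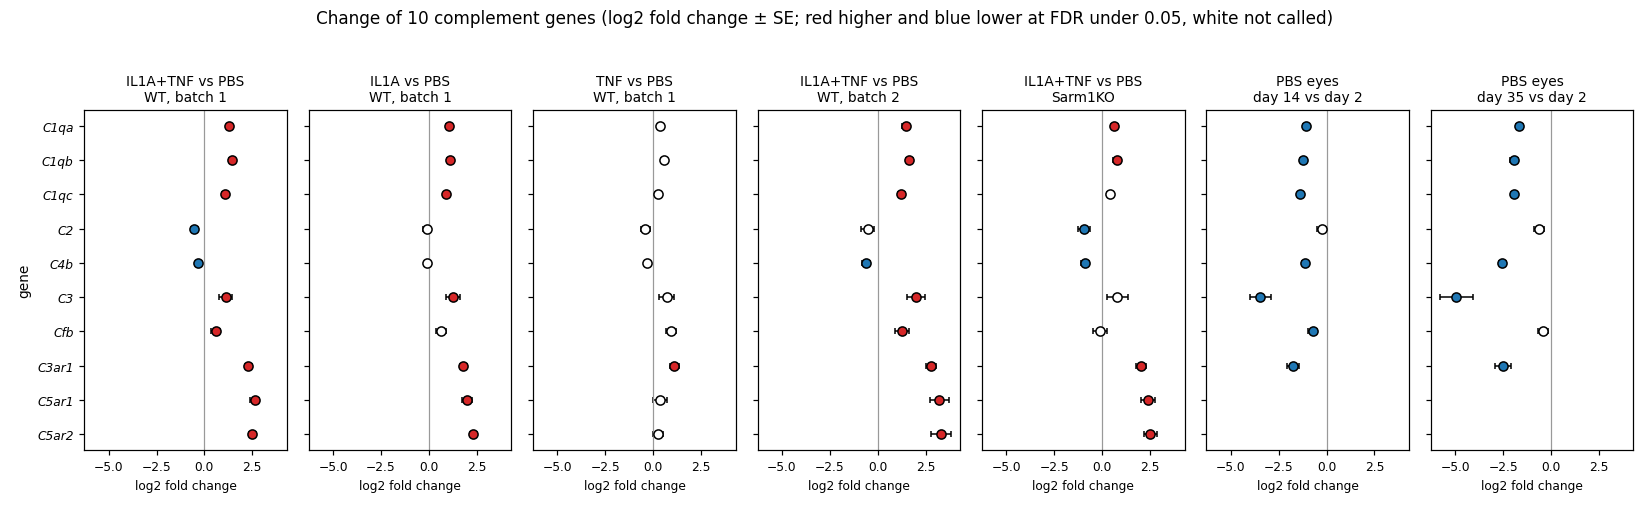
Log2 fold change of the 10 genes (vertical axis) in 7 comparisons, with bars of 1 standard error, red where called higher, blue where called lower and white where not called. C5ar1 and C5ar2 are not drawn between PBS retinas of different days. C3ar1 has log2 fold changes of 2.29 after IL1A+TNF in batch 1 and of −2.51 between PBS retinas of day 35 and day 2.

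C1qa, C1qb and C1qc encode the chains of C1q, the protein that recognises targets of the classical pathway. C1qa (ENSMUSG00000036887, chromosome 4, 136895917 to 136898803), C1qb (ENSMUSG00000036905, 136880129 to 136886187) and C1qc (ENSMUSG00000036896, 136889804 to 136893065) lie side by side on the minus strand. The gaps between them are 3616 bases (C1qb to C1qc) and 2851 bases (C1qc to C1qa). In PBS retinas of day 2, batch 1, C1qa ranged from 6.99 to 19.6 CPM (median 12.2), and in IL1A+TNF retinas from 18.6 to 39.0 CPM (median 29.4). Of the 10 IL1A+TNF retinas 9 lay above every PBS retina. C1qb ranged from 7.18 to 18.5 CPM (median 12.3) and from 19.5 to 48.2 CPM (median 35.4), with no overlap. C1qc ranged from 7.61 to 17.1 CPM (median 12.6) and from 14.7 to 37.5 CPM (median 27.2), with 8 of 10 above every PBS retina.

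C1qa rose by 1.29 on the log2 scale after IL1A+TNF (SE 0.12, FDR 1.62e-13), C1qb by 1.43 (SE 0.13, FDR 6.36e-14) and C1qc by 1.06 (SE 0.11, FDR 1.08e-11). For each of the 3 genes the treated eye was higher in 8 of 8 mice that had a PBS eye. After IL1A, C1qa ranged from 13.4 to 29.3 CPM (median 25.3), C1qb from 14.8 to 33.9 CPM (median 28.1) and C1qc from 14.8 to 26.8 CPM (median 24.2). For each gene 8 of 9 IL1A retinas lay above every PBS retina, and mouse 60588 was the lowest. The log2 fold changes were 1.03 for C1qa (SE 0.13, FDR 6.78e-09), 1.11 for C1qb (SE 0.14, FDR 5.23e-09) and 0.89 for C1qc (SE 0.12, FDR 3.67e-08), with 7 of 7 mice higher in the treated eye. In these bulk samples more cells that express a gene and more of its RNA in each cell cannot be told apart, and the same holds for fewer cells and less RNA per cell.

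After TNF the C1q genes spread widely. C1qa ranged from 6.89 to 22.3 CPM (median 16.8), C1qb from 6.80 to 26.3 CPM (median 20.7) and C1qc from 6.28 to 22.7 CPM (median 15.5). For all 3, mouse 60584 lay below every PBS retina, while 3 TNF retinas for C1qa, 5 for C1qb and 3 for C1qc lay above every PBS retina. The low marker genes of that retina are given with the marker lists. None was called by limma, with log2 fold changes of 0.38 for C1qa (SE 0.15, FDR 0.443), 0.54 for C1qb (SE 0.16, FDR 0.125) and 0.24 for C1qc (SE 0.14, FDR 0.755), and 6 of 8 mice were higher for each gene. Without mouse 60584 C1qa (0.53, FDR 0.0250) and C1qb (0.74, FDR 0.000395) were called. C1qb was also called by DESeq2 (0.58, FDR 0.0163), by edgeR (0.58, FDR 0.0172) and in the joint fit of batch 1 (0.54, FDR 0.0332). Over 18 alternatives its FDR ran from 0.000395 to 0.565, and that of C1qa from 0.0250 to 0.823.

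The direct tests placed the C1q genes higher with IL1A than without it. Against TNF retinas, the log2 fold change after IL1A+TNF was 0.92 for C1qa (FDR 1.47e-05, 9 of 10 retinas above every TNF retina), 0.89 for C1qb (FDR 5.39e-05, 8 of 10) and 0.82 for C1qc (FDR 3.20e-05, 8 of 10). IL1A against TNF gave 0.65 for C1qa (FDR 0.0118), 0.58 for C1qb (FDR 0.0378) and 0.65 for C1qc (FDR 0.00657), with 7 of 9 IL1A retinas above every TNF retina for each gene. For C1qb that call ended with edgeR (FDR 0.0546) and without a filter on low counts (FDR 0.0570), and its FDR ran from 0.0310 to 0.0570 over 8 alternatives.

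Batch 2 gave the combined treatment again in other WT mice. In the 5 WT PBS retinas C1qa was at 9.75, 12, 12.9, 13 and 15.7 CPM, and in the 6 IL1A+TNF retinas it ranged from 26.9 to 38.9 CPM (median 36.3). C1qb was at 10.7, 11.4, 12, 13.9 and 17 CPM after PBS and ranged from 30.9 to 48.2 CPM (median 41.9) after IL1A+TNF. C1qc was at 11.3, 12.5, 13.1, 14.2 and 18.0 CPM and ranged from 23.7 to 36.4 CPM (median 33.3). The groups did not overlap for any of the 3 genes, and 5 of 5 mice were higher in the treated eye. The log2 fold changes were 1.45 for C1qa (SE 0.19, FDR 1.81e-05), 1.66 for C1qb (SE 0.17, FDR 2.86e-06) and 1.23 for C1qc (SE 0.18, FDR 7.53e-05).

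In Sarm1KO retinas after PBS, C1qa ranged from 11.7 to 15.5 CPM (median 12.3), C1qb from 10.7 to 18.2 CPM (median 12.5) and C1qc from 12.6 to 16.0 CPM (median 13.5). After IL1A+TNF, C1qa ranged from 13.4 to 26.9 CPM (median 20.9), C1qb from 17.1 to 28.4 CPM (median 23.5) and C1qc from 11.9 to 24.3 CPM (median 19.0). All 6 Sarm1KO IL1A+TNF retinas lay below every WT IL1A+TNF retina of batch 2 for C1qb, 5 for C1qa and 4 for C1qc. Against Sarm1KO PBS retinas C1qa rose by 0.62 (SE 0.18, FDR 0.00405, 6 of 6 mice higher) and C1qb by 0.76 (SE 0.19, FDR 0.000857, 6 of 6 mice). C1qc was not called, at 0.40 (SE 0.17, FDR 0.0518, 5 of 6 mice). C1qc was called by DESeq2 (0.44, FDR 0.0385), by edgeR (0.44, FDR 0.0430), with mouse as a fixed factor (0.44, FDR 0.0462) and without mouse 61924 (0.49, FDR 0.0394), and its FDR ran from 0.0385 to 0.223 over 22 alternatives.

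Between Sarm1KO and WT IL1A+TNF retinas the log2 difference was −0.76 for C1qa (SE 0.16, FDR 0.00172), −0.78 for C1qb (SE 0.17, FDR 0.00192) and −0.77 for C1qc (SE 0.15, FDR 0.000947), and each gene was called in 21 of 21 alternatives. After PBS the differences were −0.04, −0.05 and −0.06, with FDR 0.995, 0.995 and 0.992. The interaction was −0.72 for C1qa (SE 0.21, FDR 0.0242), −0.73 for C1qb (SE 0.22, FDR 0.0273) and −0.71 for C1qc (SE 0.20, FDR 0.0185), with 6 of 6 Sarm1KO retinas below the WT median of batch 2 for each gene after IL1A+TNF. It was called for C1qa in 15 of 22 alternatives, for C1qb in 14 and for C1qc in 17, with the FDR running up to 0.956 for each. With batch 2 alone the values were −0.83, −0.90 and −0.83, larger in size, and none was called (FDR 0.814 each), and edgeR called none (−0.66, FDR 0.118; −0.72, FDR 0.0917; −0.67, FDR 0.0752). DESeq2 called C1qc alone (C1qa −0.66, FDR 0.0780; C1qb −0.72, FDR 0.0567), as did the fit without the retinas high in lens genes (C1qa −0.68, FDR 0.0757; C1qb −0.66, FDR 0.101). With mouse as a fixed factor the values were −0.74, −0.83 and −0.75 (FDR 0.956 each).

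Leaving out single mice changed these calls. Without mouse 61924 the interaction was −0.62 for C1qa (FDR 0.262), −0.67 for C1qb (FDR 0.250) and −0.61 for C1qc (FDR 0.238), and without mouse 61926 it was −0.66 (FDR 0.176), −0.72 (FDR 0.170) and −0.68 (FDR 0.154). Calls over all genes went from 8.75% to 0% by limma without mouse 61924, with 2493 genes at an unadjusted p under 0.05, and to 0.069% without mouse 61926. Without mouse 61561 the call ended for C1qb (−0.67, FDR 0.0522). In the treated eyes C1qa was at 13.4 CPM in mouse 61924, 14.2 in 61926, 17.6 in 61765, 24.1 in 61564, 25.5 in 61561 and 26.9 in 62221, and the first 3 of these were also the lowest for C1qb and C1qc. The same 3 eyes were low in retinal ganglion cell genes, a list of 10 that summed to 114 CPM in mouse 61924, 96.4 in 61926 and 347 in 61765, against 633 in 62221, 707 in 61564 and 755 in 61561. The 3 low eyes are those of the 3 females and the 3 high eyes those of the 3 males. Sex entered the model as 1 term for all groups, and a response that differs by sex within Sarm1KO mice was not tested. All 10 genes of that list were lower after IL1A+TNF in Sarm1KO retinas (median −1.29), where 43.5% of all genes were called, and 9 of 10 had a called interaction (median −1.03), against 8.75% of all genes, with Nefl the most abundant and none at 0. Mouse 61926 also had the highest lens sum, 4202 CPM. Its endothelial genes Kdr (95.6 CPM) and Cldn5 (3.78 CPM) lay below every Sarm1KO PBS retina (lowest 212 and 9.51). So did the microglia genes Gpr34 in mouse 61926 (1.06 CPM, lowest PBS retina 2.31) and Fcrls in mouse 61924 (2.05 CPM, lowest 3.36). These genes were picked after their values were seen, and other markers differed, with Ctss and Cd68 lowest in mouse 61561. The part of these differences in the C1q result was not tested.

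With time after a PBS injection the C1q genes were lower. At day 14 C1qa ranged from 4.19 to 6.71 CPM (median 5.73), C1qb from 4.25 to 6.18 CPM (median 5.34) and C1qc from 3.70 to 6.03 CPM (median 4.95). At day 35 they ranged from 3.32 to 4.41 CPM (median 3.83), from 2.80 to 4.11 CPM (median 3.26) and from 2.98 to 3.77 CPM (median 3.30). For all 3 genes every PBS retina of day 14 and of day 35 lay below all 31 PBS retinas of day 2. Against day 2, C1qa fell by 1.06 on the log2 scale at day 14 (SE 0.16, FDR 7.35e-06), C1qb by 1.22 (SE 0.16, FDR 7.60e-07) and C1qc by 1.38 (SE 0.13, FDR 1.80e-09). At day 35 the falls were 1.65 (SE 0.20, FDR 2.48e-08), 1.92 (SE 0.20, FDR 1.49e-09) and 1.92 (SE 0.16, FDR 4.08e-12). Retinas of different days came from different mice, and there is no group without an injection to tell a fall after the injection from other differences between these groups.

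After TNF at day 14 C1qa ranged from 4.93 to 14.1 CPM (median 6.51), C1qb from 4.40 to 11.2 CPM (median 5.85) and C1qc from 4.28 to 12 CPM (median 5.84), with 3 of 6 TNF retinas above every PBS retina for each gene. At day 35 the TNF medians were 4.17, 3.61 and 3.40 CPM, and the groups overlapped. The log2 fold changes at day 14 were 0.25, 0.18 and 0.33, with an FDR of 0.888, 0.890 and 0.888, and at day 35 they were 0.13, 0.15 and 0.02, with an FDR of 0.889, 0.889 and 0.978.

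C2 and C4 are the substrates of the C1 proteases and together form the C3 convertase of the classical pathway. C4b (ENSMUSG00000073418, chromosome 17, 34728380 to 34743882) and C2 (ENSMUSG00000024371, chromosome 17, 34862604 to 34898265) were the genes that went down at day 2. In batch 1 C4b ranged from 60.6 to 144 CPM (median 91.1) after PBS and from 42.8 to 99.1 CPM (median 75.6) after IL1A+TNF. Only 2 of the 10 treated retinas lay below every PBS retina, and the groups overlapped. C4b fell by 0.33 on the log2 scale (SE 0.12, FDR 0.0188, lower in 6 of 8 mice). The call ended with mouse as a fixed factor (−0.26, FDR 0.0855), without mouse 59734 (−0.25, FDR 0.0769) and without the retinas high in lens genes (−0.26, FDR 0.0975), and over 21 alternatives the FDR ran from 0.000945 to 0.0975. C4a, its near copy (chromosome 17, 34809092 to 34823464), was annotated as a processed transcript and rose by 0.51 (SE 0.12, FDR 0.000208), from a median of 4.12 to 6.19 CPM, opposite to C4b.

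C2 ranged from 1.11 to 6.49 CPM (median 2.28) after PBS and from 1.08 to 2.68 CPM (median 1.60) after IL1A+TNF in batch 1. The groups overlapped, with 8 of 10 treated retinas below the PBS median and 2 below every PBS retina. C2 fell by 0.52 (SE 0.20, FDR 0.0253, lower in 6 of 8 mice). The call ended without mouse 60583 (−0.49, FDR 0.0511), 60587 (−0.45, FDR 0.0652) or 60782 (−0.46, FDR 0.0635), and without the retinas high in lens genes (−0.49, FDR 0.0842), with a range from 0.00789 to 0.0842 over 21 alternatives. After IL1A neither gene was called (C2 −0.11, FDR 0.755; C4b −0.09, FDR 0.670), nor after TNF (C2 −0.41, FDR 0.709; C4b −0.32, FDR 0.462), although both were lower in 6 of 8 mice after TNF.

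In batch 2 WT retinas C4b was at 91.6, 102, 111, 111 and 124 CPM after PBS and ranged from 52.1 to 107 CPM (median 64.7) after IL1A+TNF. It was lower in 5 of 5 mice, and 5 of 6 treated retinas lay below every PBS retina. The fall was 0.61 on the log2 scale (SE 0.21, FDR 0.0420). The call ended with no filter on low counts (FDR 0.0614), with mouse as a fixed factor (FDR 0.0830), without the retinas high in lens genes (FDR 0.0821) and without mouse 61564 (FDR 0.0552), 61719 (FDR 0.0784), 61720 (FDR 0.152), 61721 (FDR 0.133) or 62224 (FDR 0.111), so from 0.000945 to 0.152 over 22 alternatives. Mouse 61564 is a Sarm1KO mouse, whose retinas enter because the fit of batch 2 held both genotypes. C2 was at 2.05, 2.34, 3.16, 3.47 and 5.42 CPM after PBS and ranged from 0.787 to 3.87 CPM (median 2.52) after IL1A+TNF. It was not called there (−0.53, SE 0.35, FDR 0.291, lower in 4 of 5 mice), and it was called with both batches in 1 fit (−0.52, FDR 0.0112). Over 22 alternatives the FDR ran from 0.0112 to 0.604. The fit of both batches also holds the batch 1 retinas, so it is no separate result of batch 2. It is among the 22 alternatives of every gene in this contrast.

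Both genes were lower in Sarm1KO retinas after IL1A+TNF. C4b ranged from 81.1 to 134 CPM (median 117) after PBS and from 40.1 to 88.7 CPM (median 57.2) after IL1A+TNF, a fall of 0.89 (SE 0.19, FDR 0.000115). C2 ranged from 2.34 to 5.53 CPM (median 2.73) and from 1.13 to 2.48 CPM (median 1.51), a fall of 0.95 (SE 0.30, FDR 0.00692). Each was lower in 6 of 6 mice, and 4 retinas for C4b and 5 for C2 lay below every PBS retina. The call of C2 ended with mouse as a fixed factor (−0.97, FDR 0.0603) and without mouse 61924 (−0.74, FDR 0.0755), in a range from 0.00294 to 0.0755 over 22 alternatives. Neither gene had a called interaction (C4b −0.49, FDR 0.155).

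Among PBS retinas C4b ranged from 27.9 to 68.3 CPM (median 39.5) at day 14 and from 11.9 to 18.6 CPM (median 16.2) at day 35. At day 14, 6 of 7 retinas lay below all day 2 PBS retinas, and at day 35 all 6 did. C4b fell by 1.15 on the log2 scale at day 14 (SE 0.13, FDR 4.47e-08) and by 2.54 at day 35 (SE 0.18, FDR 1.34e-14). C2 stayed within the range of day 2, from 1.27 to 2.88 CPM (median 2.41) at day 14 and from 1.15 to 2.11 CPM (median 1.56) at day 35. It was not called at day 14 (−0.26, FDR 0.472) or at day 35 (−0.64, SE 0.26, FDR 0.0594, 6 of 6 retinas below the day 2 median). At day 35 it was called by DESeq2 (−0.71, FDR 0.0105), by edgeR (−0.71, FDR 0.0247) and with a filter of 1 CPM (−0.65, FDR 0.0479), so from 0.0105 to 0.0890 over 7 alternatives.

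At the late days C4b was higher in TNF than in PBS retinas, with no gene past the threshold. At day 14 it ranged from 40.2 to 176 CPM (median 60.1) after TNF, above the PBS median in 6 of 6 retinas and above every PBS retina in 2. At day 35 it ranged from 17.2 to 30.2 CPM (median 22.7), above the PBS median in 9 of 9 retinas and above every PBS retina in 6. The log2 fold change was 0.56 at day 14 (SE 0.23, FDR 0.888) and 0.48 at day 35 (SE 0.12, FDR 0.889), and the treated eye was higher in 4 of 4 and in 5 of 6 mice. The TNF effect on C4b differed from that of day 2 by 1.02 at day 14 (SE 0.25, FDR 0.760) and by 0.81 at day 35 (SE 0.28, FDR 1.00), neither called. C2 had log2 fold changes of 0.26 at day 14 and 0.00 at day 35.

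C3 is the component at which the pathways meet, and Cfb encodes factor B, which joins cleaved C3 in the convertase of the alternative pathway. C3 (ENSMUSG00000024164, chromosome 17, 57203970 to 57228136) ranged from 19.9 to 219 CPM (median 80.0) in PBS retinas of day 2, batch 1. It ranged from 96.9 to 226 CPM (median 162) after IL1A+TNF and from 36.1 to 292 CPM (median 207) after IL1A. Only 1 of 10 IL1A+TNF retinas and 3 of 9 IL1A retinas lay above every PBS retina. C3 rose by 1.10 after IL1A+TNF (SE 0.36, FDR 0.00851, higher in 7 of 8 mice) and by 1.27 after IL1A (SE 0.37, FDR 0.00922, higher in 6 of 7 mice). With mouse as a fixed factor neither was called (1.09, FDR 0.104, and 1.26, FDR 0.164), and these were the highest of their alternatives, whose lowest FDR was 9.54e-05 after IL1A+TNF and 0.00151 after IL1A.

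After TNF, C3 was at 8.43 CPM in mouse 60584, 32.9 in 59897, 99.7 in 59733, 217 in 60639, 219 in 60033, 244 in 59833, 332 in 60585 and 373 in 60213. The first of these lay below every PBS retina and the last 4 lay above every PBS retina. C3 was not called (log2 fold change 0.71, SE 0.39, FDR 0.711, higher in 6 of 8 mice). It was called by edgeR (1.15, FDR 0.0473) and without mouse 60584 (1.28, FDR 0.0245), with a range from 0.0245 to 0.929 over 18 alternatives.

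Cfb (ENSMUSG00000090231, chromosome 17, 34856374 to 34862518) ranged from 0.291 to 1.49 CPM (median 0.719) after PBS. After TNF it was at 0.321 CPM in mouse 60584, 0.462 in 59897, 0.709 in 59733, 2.00 in 60033, 2.07 in 59833, 2.36 in 60639, 3.27 in 60585 and 3.88 in 60213. So 5 TNF retinas lay above every PBS retina and 3 below the PBS median. The same 3 mice were the lowest TNF retinas for C3, although mouse 59733 lay above the PBS median of C3 (80.0 CPM). The log2 fold change was 0.94 (SE 0.26, FDR 0.0749), not called by limma. It was called by DESeq2 (1.28, FDR 8.47e-05), by edgeR (1.28, FDR 0.000356), in the joint fit of batch 1 (0.93, FDR 0.0175) and without mouse 59897 (1.14, FDR 0.0130) or 60584 (1.21, FDR 0.000505). Over 18 alternatives the FDR ran from 8.47e-05 to 0.524.

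After IL1A+TNF, Cfb ranged from 0.686 to 1.71 CPM (median 1.14), and 1 of 10 retinas lay above every PBS retina. It rose by 0.58 (SE 0.24, FDR 0.0408, higher in 7 of 8 mice), a call that passed in 12 of 21 alternatives, with an FDR from 0.00122 to 0.138. The call ended without a filter on low counts (FDR 0.0611), with mouse as a fixed factor (0.65, FDR 0.138) and without the retinas high in lens genes (0.53, FDR 0.0909). It also ended without mouse 60214 (FDR 0.0962), 60215 (FDR 0.0625), 60579 (FDR 0.0568), 60583 (FDR 0.0806), 60779 (FDR 0.0902) or 60780 (FDR 0.0504). After IL1A, Cfb ranged from 0.402 to 1.93 CPM (median 1.29) and was not called (0.64, SE 0.25, FDR 0.0643, higher in 5 of 7 mice). It was called there by DESeq2 (0.68, FDR 0.0223), by edgeR (0.68, FDR 0.0279), in the joint fit (0.63, FDR 0.0342) and without mouse 60588 (0.82, FDR 0.0110), in a range from 0.0110 to 0.457 over 19 alternatives.

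Every IL1A and every IL1A+TNF retina lay below the TNF median of Cfb. The comparison of IL1A+TNF with TNF gave −0.35 (FDR 0.375) with limma, −0.73 (FDR 0.0345) with DESeq2 and −0.74 (FDR 0.0359) with edgeR, from 0.0345 to 0.765 over 8 alternatives. The IL1A by TNF interaction of Cfb was −0.99 (SE 0.39, FDR 0.154) with limma, and −1.41 with both DESeq2 (FDR 0.00778) and edgeR (FDR 0.0182), from 0.00778 to 0.395 over 8 alternatives. The interaction of C3 was −0.88 (SE 0.60, FDR 0.470).

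In batch 2 WT retinas C3 was at 28.2, 32.1, 57.0, 61.4 and 72.9 CPM after PBS and ranged from 106 to 249 CPM (median 204) after IL1A+TNF. Cfb was at 0.422, 0.464, 0.516, 0.655 and 0.795 CPM after PBS and ranged from 1.09 to 1.47 CPM (median 1.27) after IL1A+TNF. For both genes the groups did not overlap, and 5 of 5 mice were higher. C3 rose by 1.99 (SE 0.48, FDR 0.00551) and Cfb by 1.26 (SE 0.38, FDR 0.0219). The call of Cfb ended with mouse as a fixed factor (1.18, FDR 0.0712), without the retinas high in lens genes (1.17, FDR 0.0595) and without mouse 61720 (FDR 0.0672), 61721 (FDR 0.0513), 61722 (FDR 0.0638) or 62224 (FDR 0.0669), in a range from 0.00122 to 0.0712 over 22 alternatives.

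In Sarm1KO retinas neither was called. After PBS, C3 was at 43.6, 47.7, 49.7 and 54.5 CPM in 4 eyes and at 217 and 261 CPM in mice 61561 and 61564, and after IL1A+TNF it ranged from 74.3 to 262 CPM (median 160). The log2 fold change was 0.79 (SE 0.55, FDR 0.250, higher in 4 of 6 mice). Cfb ranged from 0.547 to 2.7 CPM (median 0.891) after PBS and from 0.588 to 1.30 CPM (median 1.09) after IL1A+TNF, a change of −0.13 (SE 0.36, FDR 0.812, higher in 3 of 6 mice). The PBS eyes of mice 61561 and 61564 were the highest for Cfb too, at 1.97 and 2.7 CPM. Their neutrophil genes, a list of 12, summed to 152 and 140 CPM against 27.0 to 49.9 CPM in the other 4 PBS eyes, and the part of these cells was not tested. The PBS eye of mouse 61561 also had a lens sum of 3723 CPM. The interaction with genotype was −0.55 for C3 (FDR 0.648) and −0.90 for Cfb (FDR 0.178), and Sarm1KO and WT PBS retinas differed by 0.49 for C3 (FDR 0.99) and 0.63 for Cfb (FDR 0.989), none called.

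With time after PBS, C3 fell. It ranged from 3.37 to 14.6 CPM (median 6.64) at day 14 and from 1.53 to 3.71 CPM (median 2.57) at day 35. All of these retinas lay below all 31 PBS retinas of day 2, and the falls were 3.46 at day 14 (SE 0.55, FDR 1.08e-05) and 4.94 at day 35 (SE 0.85, FDR 1.30e-05). Cfb ranged from 0.234 to 0.791 CPM (median 0.421) at day 14, a fall of 0.73 (SE 0.25, FDR 0.0293, 6 of 7 retinas below the day 2 median). At day 35 it ranged from 0.363 to 1.05 CPM (median 0.519) and was not called (−0.42, SE 0.24, FDR 0.192).

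After TNF at day 14 C3 ranged from 7.29 to 26.6 CPM (median 10.7), above the PBS median in 6 of 6 retinas, and at day 35 from 1.72 to 5.50 CPM (median 3.70), above it in 8 of 9. The log2 fold changes were 0.66 (SE 0.24, FDR 0.888, higher in 3 of 4 mice) and 0.61 (SE 0.23, FDR 0.889, higher in 5 of 6 mice), not called. Cfb had 0.30 at day 14 (FDR 0.888) and −0.41 at day 35 (FDR 0.889), and its TNF effect at day 35 differed from that at day 2 by −1.34 (SE 0.49, FDR 1.00).

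C3ar1, C5ar1 and C5ar2 encode the receptors of the small fragments C3a and C5a, which recruit and activate immune cells. C5ar1 (ENSMUSG00000049130, chromosome 7, 16246743 to 16259540) and C5ar2 (ENSMUSG00000074361, 16234585 to 16244154) lie 2588 bases apart on the same strand, and C3ar1 (ENSMUSG00000040552) lies on chromosome 6 (122847138 to 122856161). In PBS retinas of day 2, batch 1, C3ar1 ranged from 2.05 to 11.8 CPM (median 4.44), C5ar1 from 0.295 to 6.30 CPM (median 1.59) and C5ar2 from 0.135 to 1.52 CPM (median 0.684). After IL1A+TNF they ranged from 15.2 to 27.2 CPM (median 22.3), from 6.50 to 23.4 CPM (median 10.8) and from 2.22 to 6.89 CPM (median 3.67). All 10 treated retinas lay above every PBS retina for each receptor, and 8 of 8 mice were higher. C3ar1 rose by 2.29 (SE 0.17, FDR 8.60e-17), C5ar1 by 2.62 (SE 0.24, FDR 7.68e-14) and C5ar2 by 2.50 (SE 0.17, FDR 5.97e-18), and each was called in 21 of 21 alternatives.

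After IL1A, C3ar1 ranged from 7.81 to 19.5 CPM (median 16.8), C5ar1 from 2.31 to 14.1 CPM (median 6.85) and C5ar2 from 1.53 to 4.57 CPM (median 3.23). Above every PBS retina lay 8 of 9 IL1A retinas for C3ar1, 6 for C5ar1 and 9 for C5ar2, and 7 of 7 mice were higher for each. The log2 fold changes were 1.80 (SE 0.19, FDR 2.24e-11), 1.98 (SE 0.27, FDR 4.27e-08) and 2.33 (SE 0.18, FDR 9.32e-15). After TNF, C3ar1 ranged from 2.08 to 15.2 CPM (median 11.8), with 4 of 8 retinas above every PBS retina, and rose by 1.10 (SE 0.22, FDR 0.00436, higher in 7 of 8 mice).

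That rise of C3ar1 was the 1 call after TNF by limma. It was not called with mouse as a fixed factor (1.27, FDR 0.0785), without mouse 59833 (0.99, FDR 0.0528), without mouse 60585 (0.96, FDR 0.0802) or without the retinas high in lens genes (1.00, FDR 0.110), and over 18 alternatives the FDR ran from 1.30e-07 to 0.110. The lowest TNF retina, at 2.08 CPM, was that of mouse 60584. C5ar1 ranged from 0.256 to 4.87 CPM (median 3.76) after TNF, within the PBS range but for mouse 60584 below it, and C5ar2 from 0.375 to 1.32 CPM (median 0.681), within the PBS range. Neither was called (C5ar1 0.34, SE 0.37, FDR 0.902, and C5ar2 0.25, SE 0.27, FDR 0.901), and neither was called in any of 18 alternatives.

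Tested directly, IL1A+TNF exceeded TNF by 1.18 for C3ar1 (FDR 2.97e-05), 2.28 for C5ar1 (FDR 2.83e-06) and 2.25 for C5ar2 (FDR 5.30e-09), with 10 of 10 retinas above every TNF retina for each. IL1A exceeded TNF by 1.63 for C5ar1 (FDR 0.00551, 7 of 9 retinas above every TNF retina) and by 2.08 for C5ar2 (FDR 3.54e-06, 9 of 9). For C3ar1 the difference was 0.70 (FDR 0.0542, 5 of 9), which a filter of 1 CPM brought under the threshold (FDR 0.0459, from 0.0459 to 0.165 over 8 alternatives). IL1A+TNF against IL1A gave 0.49 for C3ar1 (FDR 0.0988) and 0.65 for C5ar1 (FDR 0.114), not called by limma.

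In batch 2 WT PBS retinas C3ar1 was at 2.44, 3.59, 4.6, 5.01 and 6.34 CPM, C5ar1 at 0.938, 1.24, 1.97, 2.10 and 2.83 CPM and C5ar2 at 0.188, 0.290, 0.549, 0.707 and 0.719 CPM. After IL1A+TNF they ranged from 25.3 to 39.0 CPM (median 28.0), from 11.3 to 29.9 CPM (median 16.5) and from 3.15 to 8.99 CPM (median 4.89), without overlap and higher in 5 of 5 mice. The rises were 2.76 (SE 0.26, FDR 8.83e-07), 3.21 (SE 0.49, FDR 0.000116) and 3.30 (SE 0.52, FDR 0.000158). Sarm1KO retinas also rose without overlap, from 3 to 8.38 CPM (median 3.66) up to 11.7 to 23.2 CPM (median 18.6) for C3ar1, and in 6 of 6 mice for each receptor. C5ar1 went from a median of 2.10 CPM (1.59 to 6.51) to 13.8 CPM (6.72 to 26.2), and C5ar2 from 0.617 CPM (0.265 to 1.59) to 3.85 CPM (1.81 to 8.04). The log2 fold changes were 2.03 (SE 0.27, FDR 4.20e-08), 2.40 (SE 0.38, FDR 1.12e-06) and 2.50 (SE 0.34, FDR 4.76e-08).

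C3ar1 was lower in Sarm1KO than in WT IL1A+TNF retinas by 0.63 (SE 0.21, FDR 0.0269), and all 6 Sarm1KO retinas lay below every WT retina of batch 2. The call passed in 13 of 21 alternatives, with an FDR from 0.0162 to 0.259. It ended without a filter on low counts (FDR 0.0602), with DESeq2 (−0.52, FDR 0.214), with edgeR (−0.51, FDR 0.259) and with batch 2 alone (−0.70, FDR 0.0605). It also ended without mouse 61561 (FDR 0.0568), 61719 (FDR 0.0551), 61924 (FDR 0.0764) or 61926 (FDR 0.0627). C5ar1 and C5ar2 were not called in any of 21 alternatives of that comparison, and no receptor had a called interaction in any of 22 alternatives.

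With time after PBS, C3ar1 ranged from 0.902 to 1.63 CPM (median 1.37) at day 14 and from 0.648 to 1.02 CPM (median 0.699) at day 35, and all of these retinas lay below all day 2 PBS retinas. C5ar1 ranged from 0.0879 to 0.382 CPM (median 0.167) at day 14 and from 0 to 0.295 CPM (median 0.159) at day 35. C5ar2 ranged from 0.0695 to 0.201 CPM (median 0.176) and from 0.0566 to 0.139 CPM (median 0.113). C3ar1 fell by 1.75 at day 14 (SE 0.33, FDR 0.000128, 7 of 7 retinas lower than the day 2 median) and by 2.51 at day 35 (SE 0.42, FDR 9.53e-06, 6 of 6). No test is given for C5ar1 and C5ar2 between days. They passed the filter here through the day 2 retinas and held few counts per retina later, 3 to 11 for C5ar1 and 2 to 7 for C5ar2 at day 14 and 0 to 12 and 2 to 5 at day 35, against 12 to 228 and 4 to 60 at day 2. After TNF at day 14 C3ar1 ranged from 1.38 to 3.38 CPM (median 1.77), above the PBS median in 6 of 6 retinas and not called (0.60, SE 0.23, FDR 0.888), and at day 35 the medians were 0.751 CPM after TNF and 0.699 CPM after PBS (0.02, FDR 0.99).

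Other complement genes were taken from a list of 52, of which 33 were tested at day 2. With IL1A+TNF 14 of the 33 rose and 6 fell (median log2 fold change 0.01), where 50.4% of all genes were called. After IL1A 11 were higher and 3 lower (median 0.05), against 21.4% of all genes, and after TNF 1 was higher, against 0.655%, the receptor subunit Itgax (1.46, SE 0.33, FDR 0.0125). By role after IL1A+TNF, 6 of 7 genes for receptors and binding proteins were higher (median 1.87), 2 of 8 initiation genes, both genes tested of the convertases and the alternative pathway, and 0 of 1 terminal component. Soluble regulators had 2 higher and 3 lower of 6, and membrane regulators 2 higher and 3 lower of 9. Itgax rose by 2.79 (SE 0.26, FDR 6.13e-14), Itgb2 by 2.58 (SE 0.19, FDR 4.23e-17), Itgam by 2.05 (SE 0.18, FDR 2.42e-14) and Cd93 by 1.87 (SE 0.14, FDR 4.26e-17). The regulator Serping1, the inhibitor of C1 proteases, rose by 0.70 (SE 0.13, FDR 7.87e-06), Cr1l by 0.57 (SE 0.07, FDR 1.99e-09), and properdin (Cfp) by 0.54 (SE 0.10, FDR 4.89e-06). Clu, the most abundant gene of the list at day 2, fell by 0.54 (SE 0.09, FDR 1.03e-06). C4bp was also called lower, at 1 to 8 counts per retina against 3 to 15 after PBS, too few to give a size, and was not called in batch 2 WT (−0.13) or Sarm1KO retinas (0.04). Ptx3 rose by 0.75 (SE 0.22, FDR 0.00289) and the C1 protease gene C1ra by 0.53 (SE 0.23, FDR 0.0491).

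In the other comparisons that list had 3 genes higher in IL1A+TNF than in IL1A retinas (Itgb2, C4a and Cd93), where 10.1% of all genes were called. It had 11 higher and 4 lower than in TNF retinas (39% of all genes), and 6 higher and 2 lower in IL1A than in TNF retinas (9.08%). At day 14 and day 35 after TNF limma called 0 of 29 and 0 of 28. Of those that also passed the filter within the later day, 2 were higher and 12 lower of 29 among PBS retinas at day 14 (median −0.27), against 19.2% of all genes tested, and 3 higher and 12 lower of 28 at day 35 (median −0.43), against 32.8%. Those shares cover genes without that limit, and the shares with it are given with the counts of the members above. In batch 2, 8 of 34 were higher and 1 lower in WT after IL1A+TNF, where 20.9% of all genes were called, and 9 were higher and 8 lower in Sarm1KO (median −0.11), where 43.5% were called. Between the genotypes after IL1A+TNF 5 were lower in Sarm1KO (Csmd3, Cd93, Csmd2, Itgax and Susd4), against 14.8% of all genes, and the interaction was called for 1, Csmd3, lower, against 8.75%.

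Marker genes of several cell types moved in the same comparisons as the complement genes. A list of 10 general microglia and macrophage genes, with Ctss the most abundant and none at 0, summed to 43.8 to 152 CPM (median 80.0) in PBS retinas of day 2, batch 1. It summed to 237 to 533 CPM (median 330) after IL1A+TNF, 113 to 377 CPM (median 252) after IL1A and 41.7 to 236 CPM (median 177) after TNF, with 10, 10 and 4 of 10 genes called higher, against 50.4%, 21.4% and 0.655% of all genes called. Among PBS retinas it summed to 30.7 to 40.6 CPM (median 35.3) at day 14 and 20.3 to 25.7 CPM (median 24.6) at day 35, with 10 of 10 genes lower at both days, against 19.2% and 32.8% of all genes called. In batch 2 the medians were 78.8 CPM after PBS and 420 CPM after IL1A+TNF in WT and 86.4 and 298 CPM in Sarm1KO, with 10 of 10 genes higher in each genotype, against 20.9% and 43.5% of all genes called, and 5 of 10 lower in Sarm1KO than in WT after IL1A+TNF, against 14.8%. Of 11 homeostatic microglia genes 5 rose and 3 fell with IL1A+TNF, 6 were higher and 1 lower after IL1A and 2 higher after TNF, and 10 and 11 were lower in PBS retinas at day 14 and day 35, in comparisons with the shares of all genes called given above. Their part in the complement results was not tested.

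A list of 12 neutrophil genes summed to 25.2 to 154 CPM (median 44.8) in PBS retinas of day 2, batch 1, 32.7 to 82.2 CPM (median 51.6) after TNF and 124 to 768 CPM (median 191) after IL1A+TNF. Of 11 tested, 7 rose and 1 fell with IL1A+TNF (median 2.12), 8 were higher and 1 lower after IL1A, and 0 were called after TNF by limma, where 50.4%, 21.4% and 0.655% of all genes were called. Csf3r was the most abundant after IL1A+TNF and Hdc after PBS. The defining marker Ly6g had a median under 1 count in PBS and IL1A+TNF retinas of day 2, batch 1, and was at 0 in every PBS retina of day 14 and day 35. Of 8 monocyte genes 7 were higher after IL1A+TNF, 6 after IL1A and, by limma, 0 after TNF (median 0.57, 6 of 8 positive). Of those that also passed the filter within the later day, 2 of 3 were lower in PBS retinas at day 14 and 1 of 1 at day 35. Without that limit 19.2% and 32.8% of all genes tested were called. Of 5 border macrophage genes 4 were higher after IL1A+TNF, and the 1 tested T and B cell gene was not called there. The part of these cells in the results of C5ar1 and C5ar2 was not tested.

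The TNF retina of mouse 60584 stood apart in several of these markers, which were singled out after their values were seen. Its monocyte genes summed to 3.94 CPM, below all PBS retinas of day 2, batch 1 (15.7 to 70.8 CPM), as was the sum of mouse 59897 at 15 CPM, while the other 6 TNF retinas ranged from 48.4 to 92.0 CPM. That sum of 3.94 CPM was mostly Vcan, whose lowest TNF retina was at 3.61 CPM. In those PBS retinas Vcan ranged from 12.1 to 50.1 CPM (median 28.1). The general microglia and macrophage genes of mouse 60584 summed to 41.7 CPM, also below every PBS retina. Its border macrophage sum of 10.5 CPM was almost all Lyve1 (10.3 CPM) and its neutrophil sum of 32.7 CPM mostly Hdc (29.5 CPM). Without Lyve1 the border macrophage sum was 0.128 CPM, below every PBS retina (lowest 2.04), as was that of mouse 59897 at 1.13 CPM. Without Hdc the neutrophil sum was 3.21 CPM, near the lowest PBS retina (3.07) and the lowest of the TNF retinas. Single genes of these lists were near 0 in it: Mrc1 at 0.0321 CPM (lowest PBS retina 1.38), F13a1 at 0.0641 (0.856), Ccr2 at 0.0641 (0.279) and Ms4a4c at 0.0321 (0.0558), with Pf4 and Cxcr2 at 0. Over all 8 TNF retinas Ccr2 had a median of 26.4 CPM against 3.61 in PBS retinas, and Ms4a4c 0.976 against 0.378. Without this mouse 5 of the 10 complement genes were called after TNF in place of 1, and 2.31% of all genes in place of 0.655%, and why the retina differs was not tested.

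Another list gave 9 of 10 retinal ganglion cell genes lower after IL1A+TNF in batch 1. Müller glia genes had 4 higher and 2 lower of 7, astrocyte genes 3 higher and 1 lower of 4, and endothelial genes 6 higher and 1 lower of 7, in a comparison that called 50.4% of all genes. For the 4 lens, 5 erythrocyte and 4 fibroblast genes tested limma called 0 there. Of the fibroblast genes that also passed the filter within the later day, 2 of 4 were lower in PBS retinas at day 14 and 2 of 3 at day 35. Without that limit 19.2% and 32.8% of all genes tested were called. A list of 5 genes of the retinal pigment epithelium (RPE), with Ttr the most abundant, had a sum of 16.4 to 239 CPM (median 60) after PBS, 10.1 to 39.4 CPM (median 24.4) after TNF, 8.03 to 69.2 CPM (median 25.1) after IL1A and 5.20 to 47.7 CPM (median 19.4) after IL1A+TNF. Of the 5 RPE genes 4 were lower after IL1A+TNF, 3 after IL1A and 2 after TNF, against 50.4%, 21.4% and 0.655% of all genes. In the same comparisons C2 had −0.52 (called), −0.11 (not called) and −0.41 (not called). In batch 2 limma called 0 of 5 after IL1A+TNF in WT (median −1.80) and in Sarm1KO retinas (median −0.77), against 20.9% and 43.5% of all genes. C2 had −0.53 (not called) in WT and −0.95 (called) in Sarm1KO retinas. Their part in the result of C2 was not tested.

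The retinas were also compared one by one. Over the 31 PBS retinas of day 2, batch 1, all 45 pairs of the 10 genes were correlated on log2 CPM, with permutation tests of 1e+05 shuffles, whose smallest possible p is 1e-05. By Benjamini-Hochberg over the 45 pairs 29 were under 0.05, all of them positive. Pairs of other genes were not tested, so this count cannot be called particular to complement genes. C1qa and C1qb had r = 0.919 and Spearman's coefficient 0.869 (permutation p 1e-05 each, adjusted 4.5e-05 and 6.43e-05), and r = 0.886 without the 2 retinas farthest from the median of C1qa. C1qa and C3ar1 had r = 0.82 and Spearman's coefficient 0.83. C2 and C4b had r = 0.704 and Spearman's coefficient 0.674 (permutation p 1e-05 and 5e-05, adjusted 4.5e-05 and 0.000205), and r = 0.588 without the 2 retinas farthest from the median of C2. C3 and C5ar1 had r = 0.740 and Spearman's coefficient 0.715, and C5ar1 and C5ar2 had r = 0.735 and Spearman's coefficient 0.740. C3 and Cfb had r = 0.449 and Spearman's coefficient 0.487 (permutation p 0.0108 and 0.00565, adjusted 0.0194 and 0.0111), while C2 and C3 had r = 0.00640 and Spearman's coefficient 0.0456 (permutation p 0.973 and 0.810). On the scale of CPM 27 pairs were under 0.05.

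Over all 58 retinas of day 2, batch 1, which mix treatments, the expression of the members was compared with that of 14944 genes (Pearson r of log2 CPM). The mean of the C1q genes was closest to Ctss (r = 0.953), Trem2 (0.948), Adgre1 (0.947), Cd68 (0.946) and Tlr7 (0.944), genes of microglia and macrophages. C3 was closest to C1ra (0.896), Chil1 (0.873), C1s1 (0.854), F13a1 (0.845) and Saa3 (0.839), and C4b to Pkp4 (0.808), Foxp2 (0.803), B3glct (0.801), Folr1 (0.795) and Fbln5 (0.791). The remaining members were added after the values were seen. C2 was closest to Mgll (0.893), Tspan10 (0.893) and Papss2 (0.876), and Cfb to Zmynd15 (0.687), C1s1 (0.682) and C1ra (0.667). C3ar1 was closest to Mpeg1 (0.978), Abcc3 (0.966) and Itgax (0.966), C5ar1 to Cd53 (0.972), Pirb (0.968) and Csf2rb (0.967), and C5ar2 to Cd300lf (0.937), Gad1-ps (0.936) and Csf3r (0.932). These values describe genes that vary together across treatments and name no cell as the source.

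Promoters were read for the members from RefSeq on GRCm38.p6, from 250 bases before to 50 bases after the start, to show what the genes that move together hold at their starts. The table used here held promoters of 6 of the 10 genes, C5ar2 with 2 starts, and did not hold C1qa, C2, C4b and Cfb. Motifs were searched on both strands: GGGANNTTC, like the sites of NF-kB and found in 3.94% of all 32851 promoters, TTCNNNGAA, like those of STAT factors (8.3%), TTTCNNTTT, like interferon response elements (10.6%), and TTGCNNAAT, like those of C/EBP factors (2.4%). None of these letters was found in the promoters of C1qb, C1qc and C5ar1 or at 1 of the starts of C5ar2 (chr7:16242282-16242581). C3 (chr17:57228087-57228386, minus strand) holds TTGCGAAAT at −45 to −37, C3ar1 (chr6:122856108-122856407, minus strand) holds AAAGGGAAA, the reverse complement form, at −210 to −202, and C5ar2 (chr7:16244105-16244404, minus strand) holds TTGCCAAAT at −166 to −158. A match of letters describes the sequence and is not a measured binding site. The sequences are printed 5′ to 3′ on the strand of the gene, with the match in capitals, for the 3 genes that hold one.
C3: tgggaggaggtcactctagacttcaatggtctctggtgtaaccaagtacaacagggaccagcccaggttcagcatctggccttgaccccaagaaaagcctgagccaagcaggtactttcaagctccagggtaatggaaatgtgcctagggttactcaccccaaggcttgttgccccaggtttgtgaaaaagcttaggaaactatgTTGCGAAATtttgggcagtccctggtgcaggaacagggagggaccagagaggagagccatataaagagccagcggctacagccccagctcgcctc
C3ar1: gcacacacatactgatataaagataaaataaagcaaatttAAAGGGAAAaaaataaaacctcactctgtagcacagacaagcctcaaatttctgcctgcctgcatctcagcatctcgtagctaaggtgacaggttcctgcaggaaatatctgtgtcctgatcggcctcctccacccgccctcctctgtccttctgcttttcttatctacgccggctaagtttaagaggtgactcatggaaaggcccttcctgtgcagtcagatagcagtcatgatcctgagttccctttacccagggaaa
C5ar2: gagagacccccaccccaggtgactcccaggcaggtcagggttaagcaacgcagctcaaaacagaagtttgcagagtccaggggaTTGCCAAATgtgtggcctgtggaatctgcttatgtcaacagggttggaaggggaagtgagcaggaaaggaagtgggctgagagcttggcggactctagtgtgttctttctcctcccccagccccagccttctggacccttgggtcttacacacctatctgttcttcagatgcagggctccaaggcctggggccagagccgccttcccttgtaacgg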

How the data were processed

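RNA of whole retinas was sequenced, and the values used are raw counts per gene that the authors deposited, 1 table of 109 retinas with 0 columns unused. Per the submitters' processing notes, reads were aligned with STAR 2.7.9a to mm10 and counted with featureCounts of Subread 2.0.1. The annotation release and the strand of counting are not given in the sources used here.

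Genes were filtered with edgeR's filterByExpr (minimum count 10, total 15, proportion 0.7, large group size 10) and scaled with TMM (edgeR 4.0.16). Tests used limma 3.58.1 with voom weights under R 4.3.3, with treatment and sex in the model and mouse as a random block (duplicateCorrelation, 2 rounds, statmod 1.5.0). The batch 2 WT contrast used batch 2 alone, fitted together with the Sarm1KO retinas of that batch. Tests on Sarm1KO retinas used day 2 of both batches with a batch term. PBS retinas of different days were compared without a block, both eyes of mouse 59710 as separate retinas. Benjamini-Hochberg correction ran over all genes tested, at an FDR of 0.05. CPM are TMM-scaled, and log2 CPM use a prior count of 2. The model was checked against pairing of eyes. The median residual correlation was 0.0827 between eyes of 1 mouse and −0.00984 between eyes of different mice, and 19 of 45 mice were above 0.1. No retina duplicated another, with a smallest chi-square per gene of 2.88 between 2 retinas.

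The members and lists were chosen with earlier results of these data known. Named genes are the 10 members, the 12 other complement genes with the largest change among those called in IL1A+TNF against PBS retinas, any called after TNF, and the 5 genes most alike to C1q, C3 and C4b. Those most alike to C2, Cfb and the receptors, and other names given beside small counts, were chosen after their values were seen. Marker lists cover microglia (homeostatic and general), border macrophages, monocytes, neutrophils, T and B cells, Müller glia, astrocytes, retinal ganglion cells, endothelium, RPE, lens, erythrocytes and fibroblasts. Correlations were tested with 1e+05 permutations, which give 1e-05 as the smallest p.

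Alternatives were DESeq2 1.42.0 and edgeR tests without a block, other size factors, no filter, a filter of 1 CPM, no sex term, no block, a fixed factor per mouse, all days of batch 1 fitted jointly, both batches in 1 fit or batch 2 alone, each mouse left out, and retinas with at least 300 CPM of lens genes left out. Counts of genes between days cover those that also passed the filter within the later day, a choice made after the values were seen.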

Additional observations from a re-analysis of the deposited data

Results flagged for a closer look

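Groups of 4 to 10 retinas were searched for a retina far from the others. Of 110 such tests, each of 1 gene in 1 group, 11 flagged one. Chance gives about 1 in 20 for independent tests, and these are not independent. Several genes can be flagged through 1 retina, as with mouse 60588, so the count is not compared with that rate. Mouse 60588 was lowest after IL1A for C1qb (14.8 CPM, next 25.2), C1qc (14.8 CPM, next 22.4) and C3 (36.1 CPM, next 164). Its IL1A retina was also the lowest for the markers Ctss (30.7 CPM, group median 71.7) and Ccr2 (12.4 CPM, median 36.9). The same held for Mrc1 (1.98 CPM, median 10.1) and F13a1 (1.26 CPM, median 8.07). These markers were picked after their values were seen, Hdc was not lowest in that retina, and why it differs was not tested. Mouse 61721 was lowest for C1qc after IL1A+TNF in batch 2 WT retinas (23.7 CPM, next 31.7), in a retina with a lens sum of 3186 CPM.

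After TNF, C2 was highest in mouse 59833 at day 2 (5.06 CPM, next 2.36) and in mouse 59708 at day 14 (3.96 CPM, next 2.49), and lowest in mouse 59894 at day 35 (1.33 CPM, next 1.52). Mouse 59829 was highest at day 14 after TNF for C3 (26.6 CPM, next 12.8) and C4b (176 CPM, next 73.5), in a retina with a lens sum of 4054 CPM. Among PBS retinas of day 14, C4b was highest in mouse 59708 (68.3 CPM, next 43.6) and C5ar1 in mouse 59710 (0.382 CPM, next 0.196).

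The effect of IL1A+TNF differed between Sarm1KO and WT retinas by −0.72 for C1qa, −0.73 for C1qb and −0.71 for C1qc on the log2 scale, by a test of the difference itself. The calls of that test change with the processing, as given below.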

How the results depend on the processing

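Counts of the 10 genes called changed by over 1.5 times in 4 comparisons, and the cause was not tested. Apart from some fits with 1 mouse left out, shares of all genes called are not given for the alternatives. Counts under the alternatives are therefore not set against all genes. After TNF at day 2 limma called 1, DESeq2 3, edgeR 4 and the joint fit of batch 1 3. Mouse as a fixed replicate block gave 0, as did the fit without retinas high in lens genes, an alternative chosen after seeing the data. Leaving out 1 mouse gave 0 to 5, with 0 without mouse 59833 or 60585, 2 without 59897 and 5 without 60584, where 2.31% of all genes were called. Between IL1A+TNF and IL1A the count went from 0 to 1 without a sex term. The IL1A by TNF interaction went from 0 to 1 with DESeq2 and with edgeR.

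The genotype by treatment interaction went from 3 to 1 with DESeq2 and without the retinas high in lens genes. It went to 0 with edgeR, with the fixed replicate block and with batch 2 alone. Leaving out 1 mouse gave 0 to 3, with 0 without mouse 61924 or 61926, where limma called 0% and 0.069% of all genes.

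In the other comparisons the counts stayed within 1.5 times. After IL1A+TNF in batch 1 they ran from 7 to 10, after IL1A from 6 to 8, in batch 2 WT retinas from 7 to 10 and in Sarm1KO retinas from 7 to 8. The correlations under 0.05 went from 29 to 27 on the scale of CPM.

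Among the single-gene results counted, 674 under other settings kept direction and side of the threshold, 23 newly passed it, 35 no longer passed, and none reversed. With 1 mouse left out the counts were 472, 7 and 33, which do not cover every such result. Some results that were not called changed sign with 1 mouse left out. C2 after IL1A went from −0.11 to as high as 0.01, Cfb after IL1A+TNF in Sarm1KO retinas from −0.13 to 0.22, and the genotype by treatment interaction of C5ar1 from −0.37 to 0.10. DESeq2 was not run for the differences of the TNF effect between days.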

Other observations

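Between male and female retinas of day 2, batch 1, C5ar2 differed by −0.41 and C5ar1 by −0.49 on the log2 scale, with FDR 0.243 and 0.395, over alternatives from 0.219 to 0.591 and from 0.342 to 0.560.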
